A study of Mus musculus with 6 samples.

Results

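The genes described here encode splicing factors and heterogeneous nuclear ribonucleoproteins (hnRNPs), measured in the cerebral cortex of mouse embryos with and without an active copy of Mest. They were taken as every probe whose gene symbol begins with Snrp, Sf3a, Sf3b, Srsf, Sfrs, Hnrnp or Hnrp, Lsm followed by a digit, or Prpf, leaving out the imprinted gene Snrpn. This gave 63 genes, measured by 69 probes, of the 15063 genes named on the array and its 21766 probes. Mutant embryos inherited from the father a LacZ-targeted allele of Mest (also called Peg1) that lacks exons 3 to 8, had wild-type mothers and were taken at E12.5. Mest is expressed from the paternal copy alone, so these embryos carry an intact but silent maternal copy. RNA of 6 single mutant cortices was compared with RNA of single wild-type cortices on 6 two-colour arrays, with the mutant in Cy5 for mutants 3, 5 and 6 and in Cy3 for mutants 1, 4 and 7. There were 3 wild-type cortices (2, 8 and 9), and each served on 2 arrays, in Cy3 on one and in Cy5 on the other. The wild type beside mutant 3 is labelled 1, a number absent from that set, and was read as wild type 2. The labels give neither strain nor sex.

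Nuclear pre-mRNA is spliced by the spliceosome, which is built from small nuclear RNAs and their proteins. Sm proteins form a ring around most spliceosomal RNAs and LSm proteins a similar ring around U6, the SF3a and SF3b complexes hold the U2 particle at the branch site, and PRPF proteins join, remodel or activate the assembled particles. SR proteins mostly favour the use of exons they bind, whereas many hnRNPs oppose it, and the balance between them shapes alternative splicing, which is widespread in the developing brain.

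Each value is the log2 of the mutant signal divided by the wild-type signal, shifted so that the array's median probe lies at 0. Hence a negative value means less signal in the mutant cortex relative to the other probes of that array. Mest itself had -1.36, -1.78 and -1.39 in mutants 3, 5 and 6 and -1.495, -2.07 and -1.44 in mutants 1, 4 and 7. The direction of the deposited ratios was read from this gene, so these values check the labels only in part. The table holds ratios and no signal levels, so neither the level of a splicing factor nor the presence of cortical marker genes could be checked. Among lists of markers, erythroid probes had medians from -0.31 to -0.068, below 0 on all 6 arrays (10 of 13 fitted ratios below 0), and dorsal telencephalon probes had medians between -0.10 and 0.007. The median fitted ratio was 0.033 for endothelial, -0.0092 for meningeal and 0.063 for proliferation markers. In whole tissue, fewer cells of a type and less RNA per cell cannot be told apart. The arrays gave values for 75.4% to 89.9% of probes. Once turned to mutant over wild type, arrays of opposite dye orientation correlated negatively over all probes (r from -0.44 to -0.14) and arrays of the same orientation positively (0.18 to 0.35), and a dye term was fitted.

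Splicing probes were measured more completely than the array as a whole. Values on all 6 arrays were present for 62 of the 69 probes (89.9%), against 62.2% of all probes. Tests covered the 65 probes that had 4 or more values, with 2 or more from either dye orientation. The other 4 were Snrp1c-ps2, a pseudogene, with -0.54, -0.21 and -0.32 on 3 arrays, Lsm11 with 1.64 and 2.70 on 2 arrays, Prpf38b with -1.27, 1.64 and 1.18 on 3 arrays and Hnrnpa0 with 0.69 on 1 array. Over the 6 arrays the median SD of a tested splicing probe was 0.28. It was 0.41 over all 17476 tested probes and 0.31 over the 13531 of them with values on every array.

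No splicing probe changed between mutant and wild-type cortex at an adjusted p of 0.05 in limma, where 0% of all tested probes were called. Mest, the targeted gene, had a fitted ratio of -1.59 and ranked 1 by p, yet its adjusted p in limma was 0.60. The lack of a call is therefore no evidence that a probe was unchanged. The smallest adjusted p of any splicing probe was 0.90. Before adjustment, 3 of 65 probes (4.62%) had a p under 0.05, beside 3.93% of all tested probes. They were Hnrnpu, above 0 (1 probe, beside 1.6% of all tested probes in that direction), and the Sm protein genes Snrpg and Snrpe, below 0 (2 probes, beside 2.33%). This count was 0 when the array of mutant 3 or that of mutant 7 was left out and 1 without mutant 1. Of the 65 probes 42 (64.6%) had a fitted ratio below 0, against 48.7% of all tested probes, and their median was -0.048, against 0.0069. This share depended on the setting. It was 53.7% against 51.6% of all probes on the mutant-in-Cy3 arrays alone, and 9.23% against 15.4% without centring, which lifts nearly all probes. Only 2 of the 65 lay beyond 0.5 in size (3.08%, against 13.1% of all tested probes), and none lay beyond 1, against 3.5%. For 5 probes (7.69%, against 5.57%) all measured arrays had 1 sign. Hnrnpu and Prpf4b lay above 0 throughout (2.44% of all tested probes did), and Snrpg, Sf3b5 and Prpf19 below 0 (3.12% did). On the arrays of mutants 3, 5 and 6 the median of the splicing probes was -0.14, -0.061 and 0.030, and on those of mutants 1, 4 and 7 it was -0.046, -0.12 and -0.0080.

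**Figure D1:**
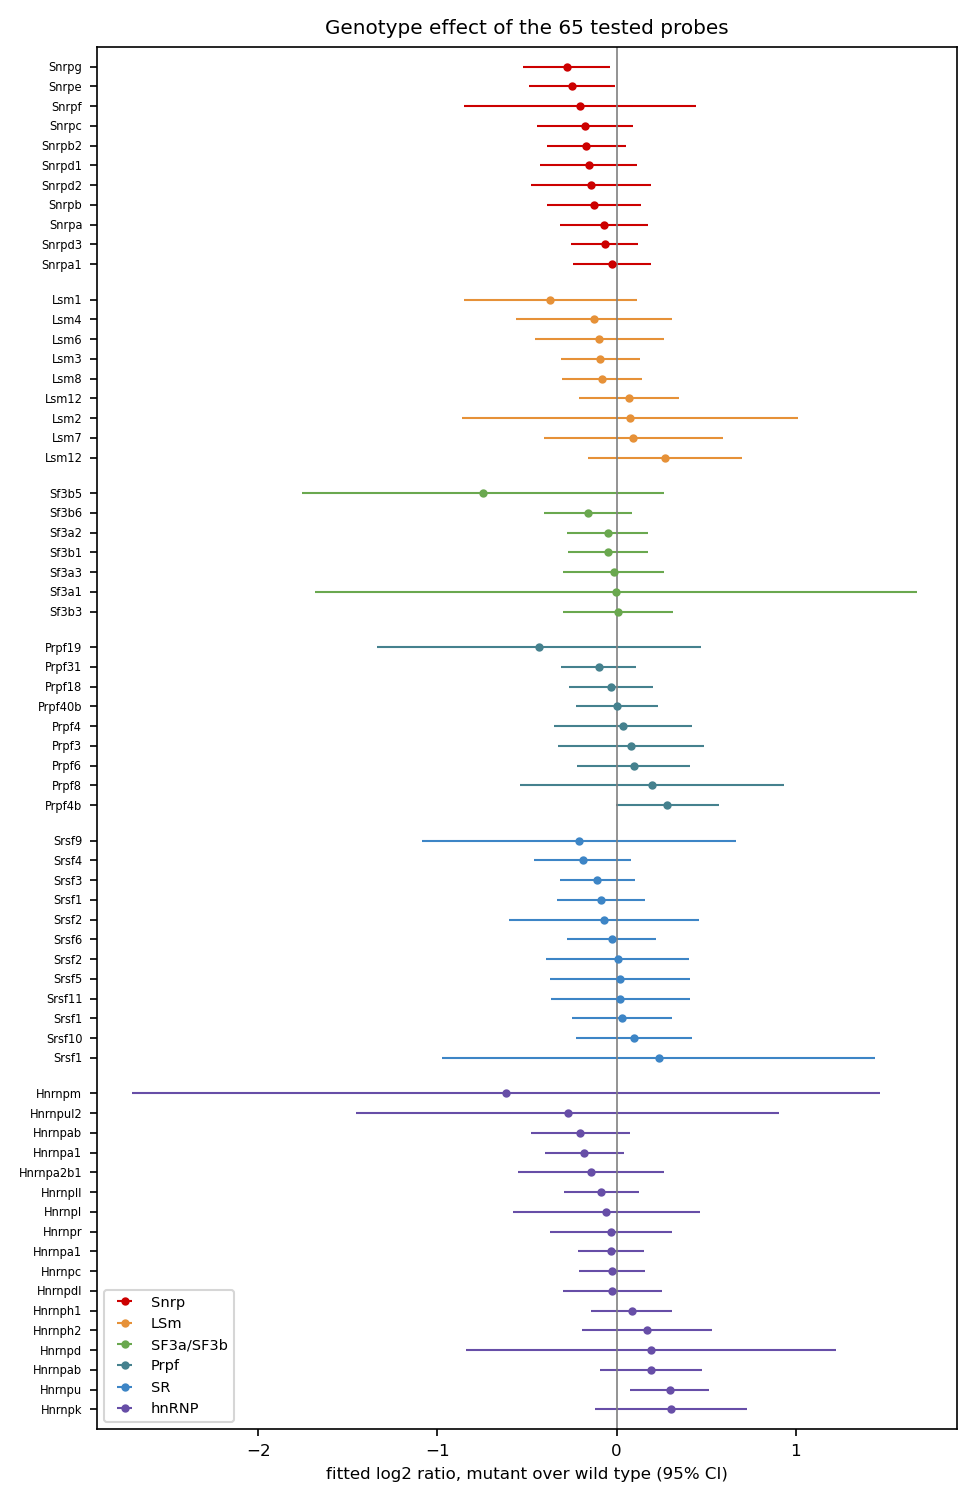
Fitted log2 ratio of mutant over wild type (x axis) with its 95% confidence interval for each of the 65 tested probes, coloured by family and sorted within it; a gene with several probes has several rows. All 11 Snrp points lie left of 0, and the intervals of Snrpg, Snrpe and Hnrnpu are the only ones that leave out 0.

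The Snrp genes, which encode proteins of the U1 and U2 particles and the shared Sm ring, were the family with the most even sign. All 11 tested probes had a fitted ratio below 0 (48.7% of all tested probes did), with a median of -0.15 and a range from -0.28 to -0.024. Snrpg, a member of the Sm ring, had -0.52, -0.40 and -0.27 in mutants 3, 5 and 6 and -0.080, -0.034 and -0.36 in mutants 1, 4 and 7. Every array lay below 0, and mutants 1 and 4 lay closest to it. Its fitted ratio was -0.28 with a standard error of 0.096 (95% confidence interval -0.52 to -0.036), and its adjusted p in limma was 0.90. Snrpe, another protein of the ring, had -0.43, -0.38 and -0.20 in mutants 3, 5 and 6 and 0.0080, -0.15 and -0.33 in mutants 1, 4 and 7. Mutant 1 was the array at 0 and the other 5 lay below. The fitted ratio of Snrpe was -0.25 with a standard error of 0.095 (95% confidence interval -0.49 to -0.0087).

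The remaining ring genes lay nearer to 0 and followed the arrays less evenly. Snrpf had the widest range, from -1.04 in mutant 3 to 0.86 in mutant 7, and a fitted ratio of -0.21. Snrpd1, Snrpd2, Snrpb and Snrpd3 had fitted ratios of -0.15, -0.14, -0.13 and -0.067. Of the genes for particle-specific proteins, Snrpc, which encodes the U1 C protein, and Snrpb2, which encodes the U2 B'' protein, lay at -0.17 each, and Snrpa (U1 A) and Snrpa1 (U2 A') at -0.072 and -0.024. None of these 9 intervals left out 0.

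The whole Snrp family was set beside other groups of probes on each array. Its median was -0.39, -0.22 and -0.15 in mutants 3, 5 and 6 and -0.080, -0.15 and -0.25 in mutants 1, 4 and 7 (mean -0.21 ± 0.11, SD, n = 6). Of 66 tested probes of cytosolic ribosomal protein genes, 61 (92.4%) also had a fitted ratio below 0, with a median of -0.19. On the same arrays these probes had medians of -0.40, -0.27 and -0.047 and of -0.095, -0.17 and -0.20. The Gapdh control spots had -0.44, -0.49 and -0.061 and -0.050, -0.30 and -0.23. All 3 groups lay below 0 on all 6 arrays and were most negative in mutants 3 or 5. The erythroid markers lay below 0 on every array as well, but were lowest in mutants 7 and 1 (-0.31 and -0.295). The part of these groups in the Snrp values was not tested. Centred on the Gapdh control spots, the median of all tested probes was 0.26, that of the Snrp probes was 0.11 and only 1 of the 11, Snrpg at -0.018, lay below 0; without centring the Snrp median was 0.098. The Snrp family was therefore below 0 only relative to the median of the array. Set against all tested probes, its median was lower by 0.16 with and without centring and with Gapdh centring. These settings move all probes of an array alike, so that difference could hardly change between them. The Snrp median minus that of all tested probes was -0.23 on the mutant-in-Cy5 arrays alone. It was -0.15 on the mutant-in-Cy3 arrays alone and -0.11 without mutant 3.

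**Figure D2:**
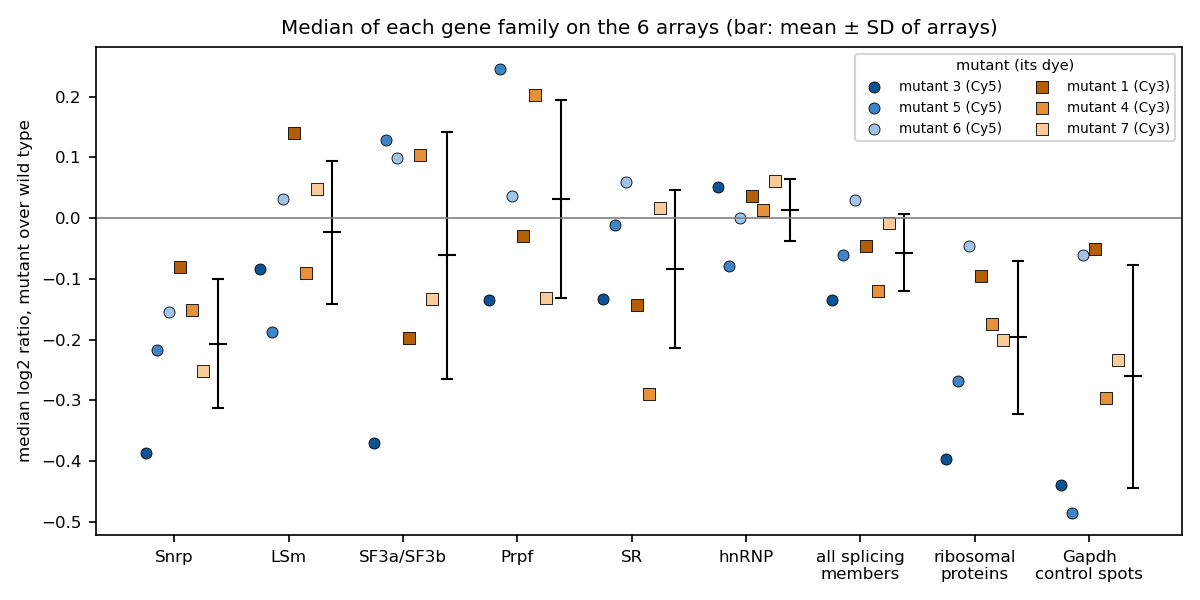
Median log2 ratio of mutant over wild type (y axis) of each family on each of the 6 arrays (circles, mutant in Cy5; squares, mutant in Cy3), with the mean and SD over arrays as black bars; cytosolic ribosomal protein genes and Gapdh control spots are shown for comparison. The Snrp points lie below 0 on all 6 arrays, as do the ribosomal and Gapdh points, and those of the other families scatter on both sides of 0.

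The promoters of the genes behind the 3 smallest p-values are shown because they are the members nearest to a difference, below 0 for Snrpg and Snrpe and above 0 for Hnrnpu. Each line gives the 250 bases before the transcription start (RefSeq, GRCm38.p6), with capitals for the GC box (letters GGGCGG), the box with the letters CCAAT, the TATA box (letters TATAAA) or the ETS core (letters CCGGAAG) on either strand. The windows are chr6:86371290-86371539 on the plus strand for Snrpg, chr1:133610281-133610530 on the minus strand for Snrpe and chr1:178337816-178338065 on the minus strand for Hnrnpu.
Snrpg: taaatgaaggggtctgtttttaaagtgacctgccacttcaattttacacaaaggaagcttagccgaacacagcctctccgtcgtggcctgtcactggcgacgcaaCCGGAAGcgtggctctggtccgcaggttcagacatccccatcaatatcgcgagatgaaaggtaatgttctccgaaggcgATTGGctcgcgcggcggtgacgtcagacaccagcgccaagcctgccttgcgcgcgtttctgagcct
Snrpe: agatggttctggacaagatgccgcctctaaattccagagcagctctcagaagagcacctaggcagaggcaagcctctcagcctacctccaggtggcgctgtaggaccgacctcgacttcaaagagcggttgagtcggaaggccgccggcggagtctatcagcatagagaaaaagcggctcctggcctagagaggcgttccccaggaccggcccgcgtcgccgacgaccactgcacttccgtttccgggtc
Hnrnpu: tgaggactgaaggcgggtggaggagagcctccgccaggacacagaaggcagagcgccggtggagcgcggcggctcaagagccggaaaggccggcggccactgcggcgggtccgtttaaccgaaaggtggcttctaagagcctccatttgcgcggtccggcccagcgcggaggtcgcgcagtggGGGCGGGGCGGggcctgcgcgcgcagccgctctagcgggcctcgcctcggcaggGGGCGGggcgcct
None of the 3 windows holds the TATA box letters. The Snrpg window has 1 ETS core and 1 CCAAT box, that of Hnrnpu has 3 GC boxes, of which a pair overlap, and the Snrpe window has none of the 4 motifs. Their GC content was 55.6% for Snrpg, 60.8% for Snrpe and 73.6% for Hnrnpu.

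Promoter entries were found for 53 of the 63 splicing genes. Their median GC content was 59.6%, against 52.0% over 27025 genes, and they held a median of 19 CpG dinucleotides per window, against 6. A GC box was present in 66.0% of the splicing promoters and in 32.9% of all promoters, the ETS core in 26.4% and 7.05%, the CCAAT box in 43.4% and 34.5% and the TATA box in 9.43% and 13.0%. The families differed in this: 5 of 6 SF3 promoters held the ETS core, 8 of 9 SR promoters a GC box, and 10 of 14 hnRNP promoters a CCAAT box. These matches are descriptions of letters and were not set against the ratios. Genes without an entry were Hnrnpll, Hnrnpul2, Lsm1, Lsm12, Lsm4, Prpf18, Sf3b5, Snrp1c-ps2, Snrpb and Snrpd1.

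LSm genes did not share the sign of the Sm genes. Of 9 tested probes 5 had a fitted ratio below 0 and 4 above, with a median of -0.081, and the family median over arrays was -0.024 ± 0.12 (SD, n = 6). Lsm1, which belongs to the cytoplasmic LSm ring that acts in mRNA decay, had 0.32, -0.64 and 0.11 in mutants 3, 5 and 6 and -0.25, -1.24 and -0.50 in mutants 1, 4 and 7. Mutants 5 and 4, compared with the same wild type, were the lowest, and mutants 3 and 6 lay above 0. Its fitted ratio was -0.37 (95% confidence interval -0.85 to 0.11). Lsm3, part of both the nuclear and the cytoplasmic ring, ranged from -0.43 to 0.14 with a fitted ratio of -0.090. Both Lsm12 probes lay above 0, at 0.27 and 0.068. Lsm2 spread from -0.96 in mutant 5 to 1.70 in mutant 7 around a fitted ratio of 0.076.

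Among subunits of SF3a and SF3b, 6 of 7 tested probes lay below 0 (85.7%, against 48.7% of all tested probes). Most lay close to 0, with a family median of -0.048. The median over arrays was -0.061 ± 0.20 (SD, n = 6), below 0 on 3 arrays and above 0 on 3. Sf3b5, which encodes a small SF3b subunit, had -1.13, -0.18 and -0.39 in mutants 3, 5 and 6 and -0.14, -0.28 and -2.36 in mutants 1, 4 and 7. It was below 0 on all 6 arrays, and mutants 3 and 7 set its size, since the fitted ratio was -0.75 (95% confidence interval -1.76 to 0.27) on all arrays, -0.37 without mutant 7 and -0.54 without mutant 3. Sf3b6, whose protein contacts the branch-point adenosine, lay at -0.16 and Sf3b3 at 0.0083. Sf3b1, the large scaffold subunit that is mutated in some human leukaemias, lay at -0.048. Sf3a1 had values from -1.55 to 1.68 on 5 arrays around a fitted ratio of -0.0030, with a 95% confidence interval from -1.68 to 1.68.

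Prpf genes were the family with the largest share of ratios above 0. Of 9 tested probes 6 lay above 0 and 3 below (33.3% below, against 48.7% of all tested probes), with a median of 0.034. The family median was -0.135, 0.25 and 0.036 in mutants 3, 5 and 6 and -0.029, 0.20 and -0.13 in mutants 1, 4 and 7 (mean 0.031 ± 0.16, SD, n = 6). It was highest in mutants 5 and 4, the arrays of wild type 8. Prpf4b, which encodes a kinase that phosphorylates spliceosomal proteins, had 0.16, 0.61 and 0.24 in mutants 3, 5 and 6 and 0.0060, 0.23 and 0.45 in mutants 1, 4 and 7. All arrays lay above 0, with mutant 1 almost at 0 and mutant 5 highest. Its fitted ratio was 0.28 with a standard error of 0.11 (95% confidence interval -0.0044 to 0.57) and its adjusted p in limma was 0.90. Prpf6, a tri-snRNP bridging protein, lay at 0.096 and Prpf31, a U4/U6 protein mutated in retinitis pigmentosa, at -0.099. Prpf31 was among the 3 splicing probes with the smallest SD over arrays, 0.12. Prpf19, a ubiquitin ligase that acts when the spliceosome is activated, had -1.35 and -0.059 in mutants 3 and 6 and -0.0040 and -0.42 in mutants 1 and 4, with no value in the others. Its fitted ratio of -0.43 became -0.13 without mutant 3.

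SR protein genes were split evenly, with 6 of 12 tested probes on each side of 0 and a median of -0.011. Srsf4 and Srsf3, both activators of exon inclusion, had fitted ratios of -0.19 and -0.11, and Srsf10, whose protein becomes a repressor when dephosphorylated, had 0.098. Genes with several probes showed how far single probes could be trusted. The probes of Srsf2 followed each other, with 0.35, -0.47 and -0.033 beside 0.42, -0.87 and -0.014 in mutants 3, 5 and 6, and 0.29, -0.39 and 0.30 beside 0.23, -0.47 and 0.28 in mutants 1, 4 and 7. Both were high in mutants 3, 1 and 7 and low in mutants 5 and 4. The 3 probes of Srsf1 did not, with fitted ratios of 0.031, -0.087 and 0.24. The last of these had 2.61 in mutant 7 and values from -0.60 to 0.13 in the other mutants, and without mutant 7 its ratio was -0.22.

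Hnrnp genes lay on both sides of 0, with 6 of 17 tested probes above and 11 below, a median of -0.030 and a median over arrays of 0.014 ± 0.051 (SD, n = 6). Hnrnpu, which encodes a nuclear scaffold protein that binds RNA and chromatin and is linked to neurodevelopmental disorders in humans, had 0.45, 0.43 and 0.19 in mutants 3, 5 and 6 and 0.14, 0.24 and 0.33 in mutants 1, 4 and 7. All 6 arrays lay above 0 within a narrow range. Its fitted ratio was 0.30 with a standard error of 0.087 (95% confidence interval 0.077 to 0.51), a 1.23-fold higher signal, and its adjusted p in limma was 0.90. It ranked 162 of 17476 probes by p.

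Of the other hnRNP genes, Hnrnpk, a poly(C)-binding protein gene, had -0.11, 0.35 and 0.44 in mutants 3, 5 and 6 and -0.12, 0.34 and 0.92 in mutants 1, 4 and 7. Both arrays of wild type 2, those of mutants 3 and 1, lay below 0 and the other 4 above, around a fitted ratio of 0.30 (95% confidence interval -0.12 to 0.73). Hnrnpa1, a repressor of exon inclusion, had probes at -0.18 and -0.030, and Hnrnpab had probes of opposite sign at -0.20 and 0.19. Hnrnpc and the second Hnrnpa1 probe had SDs of 0.078 and 0.11 over arrays, among the 3 smallest of the splicing probes. Hnrnpm had the largest SD, 2.26. It came from -5.14 in mutant 7, while the other mutants had values from -0.47 to 0.81, and its fitted ratio was -0.62 with all arrays and 0.19 without mutant 7. Several of these genes have near-identical processed copies in the genome, and whether the probes tell them apart was not determined here.

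The arrays of wild type 8 stood apart for more of the splicing probes than those of the other wild types. For 23 of the 62 probes with values on all 6 arrays (37.1%), both arrays of wild type 8, those of mutants 5 and 4, lay beyond the other 4 on the same side, against 19.7% of all such probes. For wild type 2 and wild type 9 it was 7 each (11.3%), near the 12.6% and 9.63% of all probes. These 2 arrays also had the largest shifts before centring. Deposited Cy5 over Cy3 medians were 0.76 in mutant 5 and -0.585 in mutant 4, against -0.0040 to 0.28 on the other 4. Mutant 5 was in Cy5 and mutant 4 in Cy3, so as mutant over wild type both shifts lay above 0. The array of mutant 5 had the fewest values (75.4% of probes) and the widest spread of all probes, a median absolute deviation of 0.57, against 0.32 to 0.50 on the other 5. The part of these properties in the pattern was not tested. The arrays of wild type 8 lay below the others for 13 probes (21%, against 8.59%), among them Prpf31, both Srsf2 probes, Srsf9, Hnrnpl, Hnrnpdl, Hnrnpr, Lsm1, Lsm2 and Lsm7. They lay above for 10 (16.1%, against 11.1%), among them Prpf8, Prpf3, Prpf4, Prpf18 and Prpf40b, as well as Srsf5, Hnrnpa2b1 and Hnrnpd. Prpf8, the central scaffold of the spliceosome, had 1.38 and 0.57 in mutants 5 and 4, and -0.58 and -0.39 in mutants 3 and 1 and 0.35 and -0.14 in mutants 6 and 7. Hnrnpl, which binds CA-rich RNA, had -0.66 and -0.62 in mutants 5 and 4, and 0.43 and 0.18 in mutants 3 and 1 and -0.074 and 0.39 in mutants 6 and 7.

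The 2 arrays share 1 wild-type cortex, so a fit that sets them against the other 4 counts that cortex as 2 replicates and its p-values are too small. Across all 13531 probes such a fit, added after the pattern was seen, called none at an adjusted p of 0.05 in limma (0% of all probes), and the smallest adjusted p of a splicing probe was 0.35. Before adjustment it gave 13 of 62 splicing probes (21%) with a p under 0.05, beside 12.9% of all probes. For wild types 2 and 9 the same fit gave 4 and 2 probes (6.45% and 3.23%, against 5.42% and 4.45%) and none at the adjusted threshold. The difference of the wild type 8 arrays from the other 4, given as a description of probes picked for it, was -0.86 for Lsm1, -0.87 for Hnrnpl, -0.90 and -0.65 for the Srsf2 probes, and 1.17 for Prpf8. Xist also had its lowest values on these 2 arrays, -0.36 in mutant 5 and -2.38 in mutant 4, against 0.41 to 3.18 on the other 4, and its part in the pattern was not tested. A difference of wild type 8 and one shared by mutants 4 and 5 cannot be told apart.

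**Figure D3:**
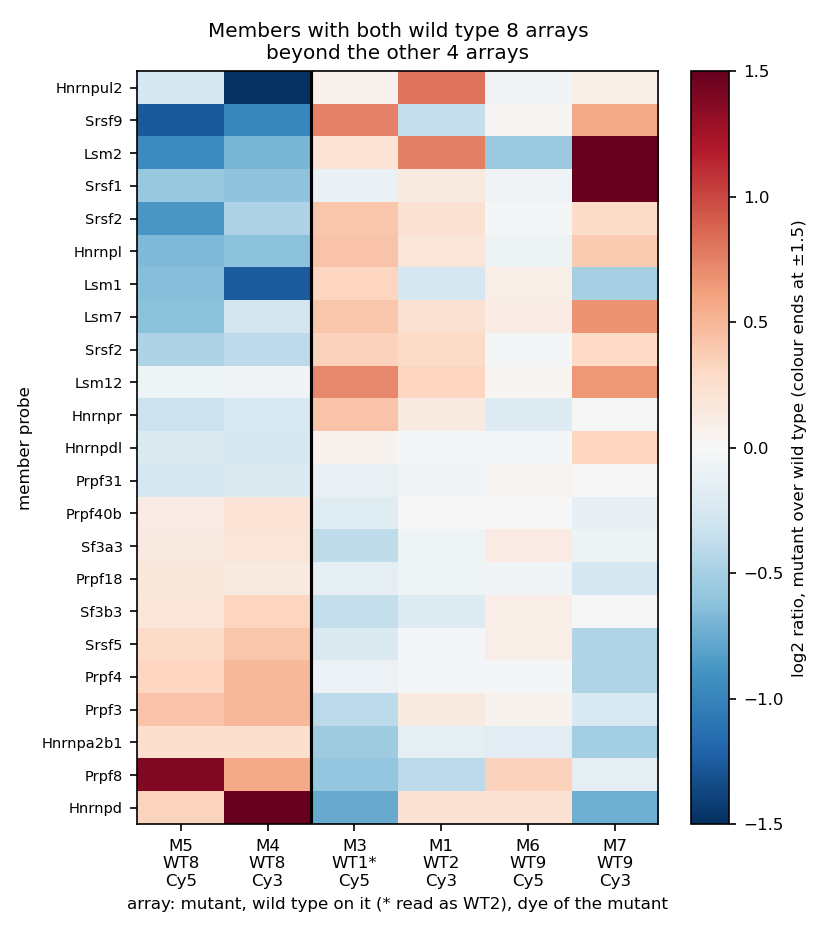
Log2 ratio of mutant over wild type (colour) of the 23 member probes (rows) for which both arrays of wild type 8 (left of the black line) lie beyond the other 4 arrays; columns name the mutant, the wild type and the dye of the mutant. The 13 upper rows are lower and the 10 lower rows higher on both wild type 8 arrays, since the rows were picked for this. These arrays carry the mutant in opposite dyes, so agreement across dyes follows from the selection and is no test of the dye.

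Few splicing probes followed the dye. In limma the dye term reached an adjusted p under 0.05 for no splicing probe and for 0.269% of all tested probes, and 2 of 65 had an unadjusted p under 0.05 (3.08%, against 20% of all tested probes). The orientations did not overlap for 9 of 65 probes (13.8%, against 29.8% of all tested probes). Among the 13531 probes with values on every array, they did not overlap for 3385. The median size of the dye coefficient was 0.10, against 0.17 over all tested probes and 0.13 over those with values on every array. Snrpd3 had -0.39, -0.22 and -0.21 with the mutant in Cy5 and 0.16, 0.13 and 0.13 in Cy3, so its sign followed the dye. Sf3b1 had -0.065, 0.32 and 0.23 with the mutant in Cy5 and -0.28, -0.25 and -0.25 in Cy3. The adjusted p of the dye term was 0.17 for Snrpd3 and 0.20 for Sf3b1. Next in order came Snrpb and 1 Hnrnpab probe with positive coefficients (0.20 and 0.21), and the other Hnrnpab probe and Snrpd2 with negative ones (-0.21 and -0.22).

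**Figure D4:**
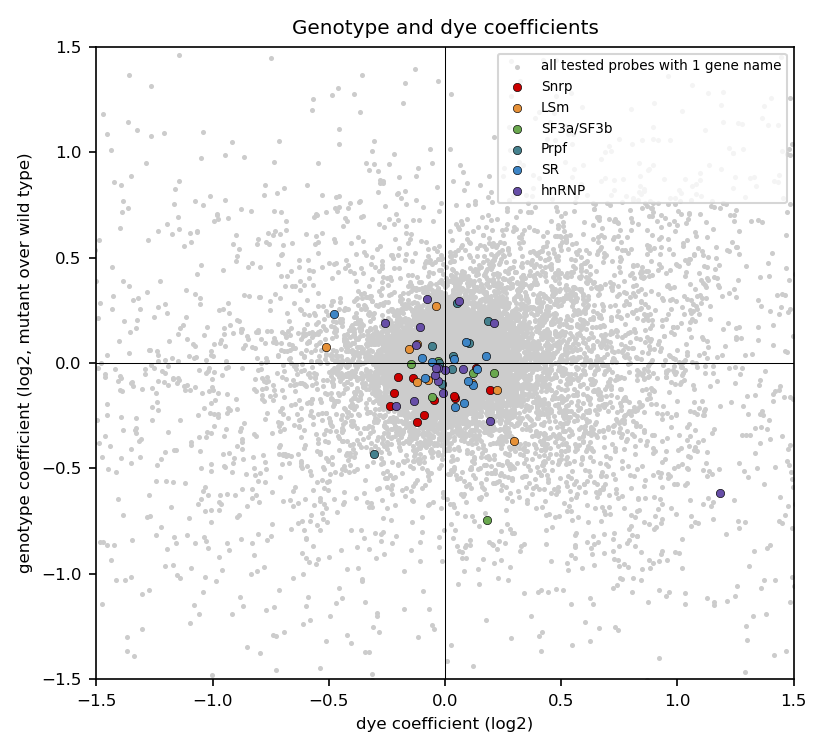
Genotype coefficient (y axis, log2 of mutant over wild type) against dye coefficient (x axis, log2) for the tested splicing probes, coloured by family, over all tested probes with 1 gene name (grey); 638 of the 13773 named probes, and no splicing probe, lie outside the axes at ±1.5. Splicing probes lie near the centre of the grey cloud, apart from Hnrnpm (dye coefficient 1.18) and Sf3b5 (genotype coefficient -0.75).

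No probe of the other pathway lists passed the adjusted threshold in limma (0% of all tested probes did). Of 48 probes for core splicing factors outside the families above (47 of 55 listed genes), 22 lay above 0 and 26 below, with a median of -0.019 and none at an unadjusted p under 0.05 in either direction. Dhx15, a helicase that takes spliceosomes apart, and Rbm22 lay at 0.34 and 0.18, and Ppih and Sugp1 at -0.21 and -0.20. For tissue-regulated and neuronal splicing regulators (45 probes, 38 of 50 genes), 25 lay above and 20 below 0, with a median of 0.033 and none at the unadjusted threshold. Ratios in this list ran from -1.505 (Elavl1) to 0.94 (Srrm4), and 6 of its 45 probes lay beyond 0.5 in size, beside 13.1% of all tested probes. The low Elavl1 probe had -5.15 in mutant 5 and -4.13 in mutant 7, and the high Srrm4 probe had 4.63 in mutant 5. Another probe of Elavl1 lay at 0.11 and another of Srrm4 at 0.0056, so neither extreme was shared by both probes of its gene. Here Rbm39 and the neural progenitor gene Msi1 lay at 0.32 and 0.20, and Nova1 and Ptbp1, regulators of neuronal exons, at -0.18 and -0.15. Msi1 lay above 0 on all 6 arrays, from 0.022 to 0.39, with an adjusted p of 0.90 in limma.

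Kinases of SR proteins and snRNP assembly genes (33 probes, 23 of 28 genes) had 18 probes above and 15 below 0. Their median was 0.017. Several of these probes carry the name of 1 gene, Tnpo3, with fitted ratios from -0.23 to 0.32, so the counts are not of separate genes. At the unadjusted threshold lay 1 probe, in the lower direction, beside 2.33% of all tested probes. That probe was Gemin7, part of the complex that loads Sm rings onto RNA, at -0.41, with -0.14, 0.34 and -0.15 with the mutant in Cy5 and -1.37, -0.63 and -0.52 in Cy3. Prmt5, which methylates Sm proteins, lay at 0.26, the SR kinase gene Srpk2 at 0.15 and Clns1a, a chaperone of Sm proteins, at -0.17. Exon junction and mRNA export genes (16 probes, 13 of 23 genes) had 7 above and 9 below 0. At the unadjusted threshold lay 1 probe per direction, beside 1.6% of all tested probes above 0 and 2.33% below. Both were probes of the export gene Thoc2, at 1.08 on 4 arrays and -0.50 on 6, so the probes of this gene disagreed in sign. The probe at 1.08 had -0.165 and -0.37 with the mutant in Cy5 and 1.73 and 3 in Cy3, so its own sign followed the dye. The exon junction list also held Smg6 at 0.12 and Nxt1 at -0.12.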

How the data were processed

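The deposited values are log2 ratios of 6 two-colour arrays, 1 per pair of single cortices. How they were scanned, background-corrected or normalized is not given in the sources used here. Because the sign of the Mest probe follows the dye labels, the authors' deposited log2 ratios were read as Cy5 over Cy3. Deposited array medians ranged from -0.59 to 0.76, and any centring before deposit is unknown. Over probes, deposited values correlated at 0.18 to 0.35 within and at 0.14 to 0.44 between dye orientations. The 590 values at the ceiling of 16.61 were set to missing (0 of them in splicing probes), and the 232 Gapdh control spots were left out of the tests. No signal was available here, so brightness-dependent offsets could not be removed, and the 6 arrays limit precision.

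Ratios were turned to mutant over wild type, centred on each array's median and fitted over all 17476 probes with limma 3.58.1 in R 4.3.3 (lmFit, eBayes), with a genotype intercept, a dye term and the wild-type cortex as a random block (consensus correlation 0.25). P-values were adjusted by Benjamini-Hochberg over all tested probes. Replicates are separate mutant embryos; their wild types are shared. Symbols came from the platform's annotation, and all 69 member probes matched GRCm38.p6. Members, lists and tests were chosen with earlier results of these data known, and the promoter motifs and the wild-type comparison after the values were seen. Named probes are, per family, the 2 with the smallest p per direction, the 3 with the smallest p for the dye term per direction, and the 3 with the smallest and the 3 with the largest SD; per pathway list, the 2 genes with the smallest p per direction; genes with several probes may be given in full. Others named were chosen after their values were seen. The fit was tested on simulated data. Alternatives covered the block, dye term, centring, scaling, filters, ceiling, moderation, probes per gene and arrays left out.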

Additional observations from a re-analysis of the deposited data

Results flagged for a closer look

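2 probes among the 30 named splicing probes had 1 array far from the others, with a gap to its neighbour, as a share of the range over 6 arrays, above Dixon's 95% critical value. Both were among the 3 probes named for the largest SD, so this count is not set against chance. The Hnrnpm probe had -5.14 in mutant 7, against -0.47 to 0.81 in the other mutants. The third Srsf1 probe had 2.61 in mutant 7, against -0.60 to 0.13 in the others. Over all 65 tested splicing probes 3 were so placed, and none of the 7 medians (all splicing probes and 6 families) was. The share over all tested probes of the array was not computed, so the count of 3 has no baseline here.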

How the results depend on the processing

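No splicing probe passed the adjusted threshold under any of the 21 alternatives, and none did for the dye term under the 18 that fitted it over the array. The count at an unadjusted p under 0.05 (3) was 5 without the dye term (6.14% of all tested probes), 0 without centring (1.28%), 7 with Gapdh centring (15.8%), 1 on the mutant-in-Cy5 arrays alone (8.16%), 1 on the mutant-in-Cy3 arrays alone (10.9%), and 0 to 3 when single arrays were left out (0 without mutant 3 or 7, 1 without mutant 1). Leaving out centring, or centring on Gapdh spots, lifts nearly all probes alike, so probes a little below 0 turn by construction. Without centring the median of all tested probes was 0.26, and 9.23% of splicing probes lay below 0, against 15.4% of all tested probes, with medians of 0.20 for all splicing probes, 0.098 for Snrp, 0.17 for LSm, 0.20 for SF3, 0.29 for Prpf, 0.24 for SR and 0.22 for hnRNP. With Gapdh centring they were 9.23% (15.5% of all tested probes), 0.20, 0.11, 0.18, 0.18, 0.29, 0.25 and 0.23 in that order. On the mutant-in-Cy3 arrays alone 53.7% of splicing probes lay below 0, near the 51.6% of all probes, and 8 of 12 Snrp probes did; on the mutant-in-Cy5 arrays 9 of 11 did.

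Named probes shifted above 0 in this way without centring were Hnrnpc 0.23, Snrpe 0.0037, Snrpb 0.13, Srsf4 0.063, Srsf3 0.15, the Hnrnpa1 probes 0.071 and 0.22, Snrpd3 0.19, Prpf31 0.15, Sf3b1 0.20, the lower Hnrnpab probe 0.049, Sf3a1 0.41, Sf3b6 0.092, Snrpd2 0.11 and Lsm3 0.16. With Gapdh centring the same probes had 0.24, 0.012, 0.14, 0.072, 0.15, 0.080 and 0.23, 0.19, 0.16, 0.21, 0.058, 0.18, 0.10, 0.12 and 0.17. On the mutant-in-Cy5 arrays alone the sign turned for Snrpb 0.070, Srsf3 0.015, Hnrnpa1 0.047, Lsm12 -0.088, Sf3b1 0.16, Sf3b3 -0.023, Hnrnpm 0.57 and Srsf1 -0.24. On the mutant-in-Cy3 arrays alone it turned for Hnrnpc 0.0067, Snrpd3 0.14, Prpf6 -0.0067, the Hnrnpab probes 0.0070 and -0.018, Sf3a1 0.14, Snrpd2 0.079 and Lsm3 0.033. Sf3a1 was 0.13 with scaled arrays and 0.15 with quantile normalization, and Sf3b3 was -0.024 with wild type 1 as its own block. Leaving out single arrays gave -0.088 to 0.0074 for Sf3b1, -0.48 to 0.52 for Sf3a1, -0.062 to 0.073 for Sf3b3, -1.12 to 0.19 for Hnrnpm and -0.22 to 0.56 for the third Srsf1 probe. Apart from centring, the cause of these turns was not tested. Each array is itself a paired comparison of a mutant with a wild type, and the fit blocked on the shared wild type; without that block the unadjusted count was 4 (6.40% of all tested probes).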
